A study of Larimichthys crocea with 3 samples.

Results

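The genes nanos2, nanos3 and dnd1 encode RNA-binding proteins of the germline, and they were read here as 3 of the 27368 features counted in testis cells of the large yellow croaker, Larimichthys crocea. They were chosen by name. The feature table lists nanos3 under its symbol, nanos2 as LOC104936906 and dnd1 as LOC104935689, and the names of the last pair came from a reference annotation table. Droplet single-cell RNA sequencing (10x Genomics 3′ v3 chemistry) had been run on dissociated testes in 3 stages, an adult differentiating testis, an adult regressed testis and a juvenile testis. Each stage has 1 library of testicular cells. Strain, age and the number of fish behind a library are not given in the sources used here. With no replicate, no difference between libraries could be tested, and stage cannot be told apart from library.

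Nanos proteins carry a zinc finger that binds RNA, and they act with Pumilio proteins to bring the CCR4-NOT deadenylase to messenger RNAs, which are then shortened and repressed. In mouse, NANOS2 maintains spermatogonial stem cells and keeps male germ cells out of meiosis, NANOS3 protects primordial germ cells, and DND1 is a partner of NANOS2. In zebrafish, nanos3 and dnd1 RNAs are part of the germ plasm laid down in the egg, and dnd1 is needed for primordial germ cells to survive and migrate. In several teleosts nanos2 marks undifferentiated spermatogonia.

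Counts are of unique molecular identifiers (UMIs, each standing for 1 captured RNA molecule). Levels are given as CPM, the UMIs of a gene scaled by the summed UMIs of the kept cells of a library. Intervals are exact 95% intervals and cover counting error only. After filtering, 12840 adult differentiating, 15276 adult regressed and 4560 juvenile cells remained, with 79705859, 220635454 and 23461393 UMIs in the same order. The median cell held 3591 UMIs in the adult differentiating testis, 12193.5 in the adult regressed testis and 3086.5 in the juvenile testis, so that shares of cells with a UMI are compared at equal depth below. The libraries shared between 18 and 68 barcode sequences pairwise. All 17 spermatocyte markers were detected in every library, at a summed 8464 CPM in the adult differentiating, 2812 CPM in the adult regressed and 907.5 CPM in the juvenile testis. All 9 oocyte markers of an ovary list were detected as well, at a summed 114.5 CPM in the adult differentiating, 183.2 CPM in the adult regressed and 11390 CPM in the juvenile testis. Both lists were thus detected in full in every library, so that detection alone does not identify the tissue. In the juvenile testis the oocyte sum lay between 3665 and 15600 CPM in each of the 8 clusters with at least 50 cells. The part of those oocyte transcripts in the juvenile levels of the 3 genes was not tested.

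nanos2 was highest in the juvenile testis, intermediate in the adult differentiating testis and lowest in the adult regressed testis. The sums were 301 UMIs or 3.78 CPM (3.36 to 4.23) in the adult differentiating testis, 64 UMIs or 0.290 CPM (0.223 to 0.370) in the adult regressed testis and 179 UMIs or 7.63 CPM (6.55 to 8.83) in the juvenile testis. None of these intervals overlap. The adult differentiating level was 13.0-fold (9.91 to 17.3) that of the adult regressed testis, a pair in which 21.3% of 21928 features were at least 2-fold higher. Against the juvenile testis, the adult differentiating level was 2.02-fold lower (1.67 to 2.44), where 25.8% of 20471 features were at least 2-fold lower. The adult regressed level was 26.3-fold (19.7 to 35.6) below the juvenile level, where 25.0% of 21739 features were at least 2-fold lower. In such sums, fewer cells with the RNA and less RNA in each cell cannot be told apart.

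nanos3 was close to absent from the adult differentiating testis and low in the adult regressed testis. The sums were 7 UMIs or 0.0878 CPM (0.0353 to 0.181) in the adult differentiating testis, 111 UMIs or 0.503 CPM (0.414 to 0.606) in the adult regressed testis and 353 UMIs or 15.1 CPM (13.5 to 16.7) in the juvenile testis. Here the adult differentiating testis, not the regressed one, was the lowest. Its level was 5.73-fold (2.69 to 14.6) below that of the adult regressed testis (2-fold lower or more in 18.8% of features) and 171-fold (82.3 to 429.2) below that of the juvenile testis. The adult regressed level was 29.9-fold (24.1 to 37.4) below the juvenile level.

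dnd1 differed least between the adult libraries. The sums were 2275 UMIs or 28.5 CPM (27.4 to 29.7) in the adult differentiating testis, 8303 UMIs or 37.6 CPM (36.8 to 38.5) in the adult regressed testis and 2774 UMIs or 118.2 CPM (113.9 to 122.7) in the juvenile testis. The ratio between the adult libraries, differentiating over regressed, was 0.759 (0.724 to 0.795), inside 2-fold. Against the juvenile testis, dnd1 was 4.14-fold (3.92 to 4.38) lower in the adult differentiating testis and 3.14-fold (3.01 to 3.28) lower in the adult regressed testis. All 3 genes were thus highest in the juvenile testis, with the adult order reversed for nanos2. When every cell was given equal weight, by averaging the CPM of single cells, the ratio of adult differentiating over adult regressed was 5.34 for nanos2, 0.0510 for nanos3 and 0.271 for dnd1. Of adult differentiating over juvenile it was then 0.00116 for nanos3 and 0.0835 for dnd1, and of adult regressed over juvenile 0.0655 for nanos2. The direction of each ratio held, and its size depended on the weight given to deep cells.

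**Figure D1:**
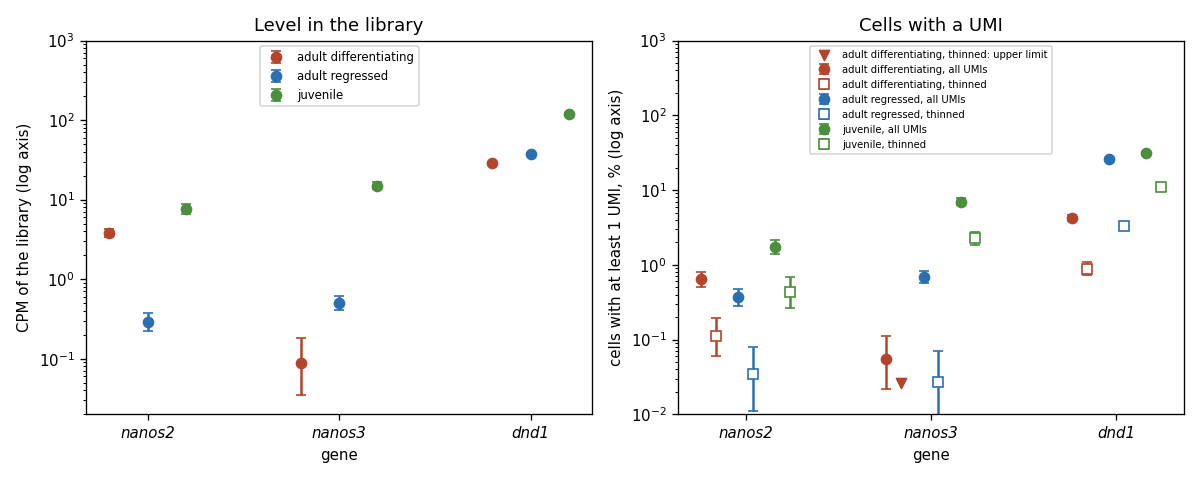
Left, CPM of each gene in each library on a log axis; right, the percentage of cells with at least 1 UMI on a log axis, with all UMIs (circles) and after thinning to 1000 UMIs per cell (squares; the triangle is the upper limit for a count of 0). Bars are exact 95% counting intervals. The juvenile testis is highest for each gene, and the adult libraries stand in opposite order for nanos2 and nanos3.

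The libraries also differed in how the RNA was spread over cells. nanos2 was found in 82 adult differentiating cells (0.639%, 0.508% to 0.792%), 56 adult regressed cells (0.367%, 0.277% to 0.476%) and 79 juvenile cells (1.73%, 1.37% to 2.16%). In the adult differentiating testis, 28 cells with at least 3 UMIs held 78.4% of its nanos2 UMIs, with up to 23 UMIs in 1 cell. In the adult regressed testis, 51 of the 56 cells had 1 UMI and the highest cell had 4. In the juvenile testis, 13 cells with at least 3 UMIs held 57.5% of the nanos2 UMIs, with up to 21 in 1 cell. A few nanos2-rich cells were thus present in the adult differentiating and juvenile libraries, and 2 cells with at least 3 UMIs in the adult regressed testis.

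nanos3 was never concentrated in this way. It was found in 7 adult differentiating cells with 1 UMI each, in 105 adult regressed cells with at most 3 UMIs, and in 320 juvenile cells (7.02%, 6.29% to 7.80%), of which 294 had 1 UMI and the highest had 5. The median juvenile cell with nanos3 held 3412.5 UMIs in all, near the 3065.5 of cells without it. In the adult libraries cells with nanos3 were deeper than the rest. They had a median of 43162 UMIs against 3588 in the differentiating testis and 18707 against 12157 in the regressed one. Cells with nanos2 were deep in all 3 libraries. Their median was 22148 UMIs in the adult differentiating, 18364.5 in the adult regressed and 15709 in the juvenile testis, against 3571.5, 12174 and 3074 UMIs for the other cells of these libraries.

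dnd1 was found in 542 adult differentiating cells (4.22%, 3.88% to 4.58%), 3941 adult regressed cells (25.8%, 25.1% to 26.5%) and 1431 juvenile cells (31.4%, 30.04% to 32.75%). Cells with at least 3 UMIs held 84.9% of the dnd1 UMIs in the adult differentiating testis, 54.4% in the adult regressed testis and 45.2% in the juvenile testis. In the adult differentiating testis most dnd1 UMIs thus lay in 225 cells, while in the adult regressed testis they were spread over 990 cells with at least 3 UMIs, 839 with 2 and 2112 with 1. The highest cell had 34 dnd1 UMIs in the adult differentiating, 22 in the adult regressed and 60 in the juvenile testis.

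Each cell was then thinned to 1000 UMIs, and shallower cells were dropped (1251 in the adult differentiating testis, 656 in the adult regressed one and 193 in the juvenile one). dnd1 remained in 0.889% of cells of the adult differentiating testis, 3.32% for the adult regressed testis and 10.9% for the juvenile testis, against 4.62%, 26.9% and 32.4% of the same cells unthinned. nanos2 was left in 0.112%, 0.0342% and 0.435% of cells in the same order of libraries, against 0.690%, 0.383% and 1.76% unthinned. nanos3 was found in 0 of 11589 thinned adult differentiating cells, which allows a share of up to 0.0259%, in 0.0274% of adult regressed cells and in 2.27% of juvenile cells. At equal depth the order of the libraries was the same as for the CPM. With nanos3 in the adults, the thinned values lie at or near the limit of detection.

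Depth within a library separated the genes further. In the adult differentiating testis, nanos2 stood at 0.208 CPM in cells of 5000 to 10000 UMIs, at 4.91 CPM in cells of 10000 to 20000 UMIs and at 8.68 CPM in cells with at least 20000 UMIs, where 7.77% of cells had it. dnd1 in that library had 3.11 CPM in cells of 2000 to 5000 UMIs and 71.4 CPM at 20000 UMIs or more, with 1.03% and 44.1% of cells positive. CPM is already scaled to UMIs, so the level itself differed between shallow and deep cells. In the adult regressed testis dnd1 ranged from 11.2 to 47.7 CPM over the 6 depth classes, and nanos2 did not pass 0.374 CPM in any.

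In the juvenile testis dnd1 was at 84.0 to 158.9 CPM in every depth class, including 115.0 CPM in cells under 1000 UMIs. nanos3 went the other way from nanos2 there. It stood at 27.1 CPM in cells of 1000 to 2000 UMIs and 23.5 CPM in cells of 2000 to 5000 UMIs, and at 5.74 CPM in cells of 10000 to 20000 UMIs. nanos2 stood at 1.85 CPM in juvenile cells of 2000 to 5000 UMIs and at 17.5 CPM in those of 5000 to 10000 UMIs.

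**Figure D2:**
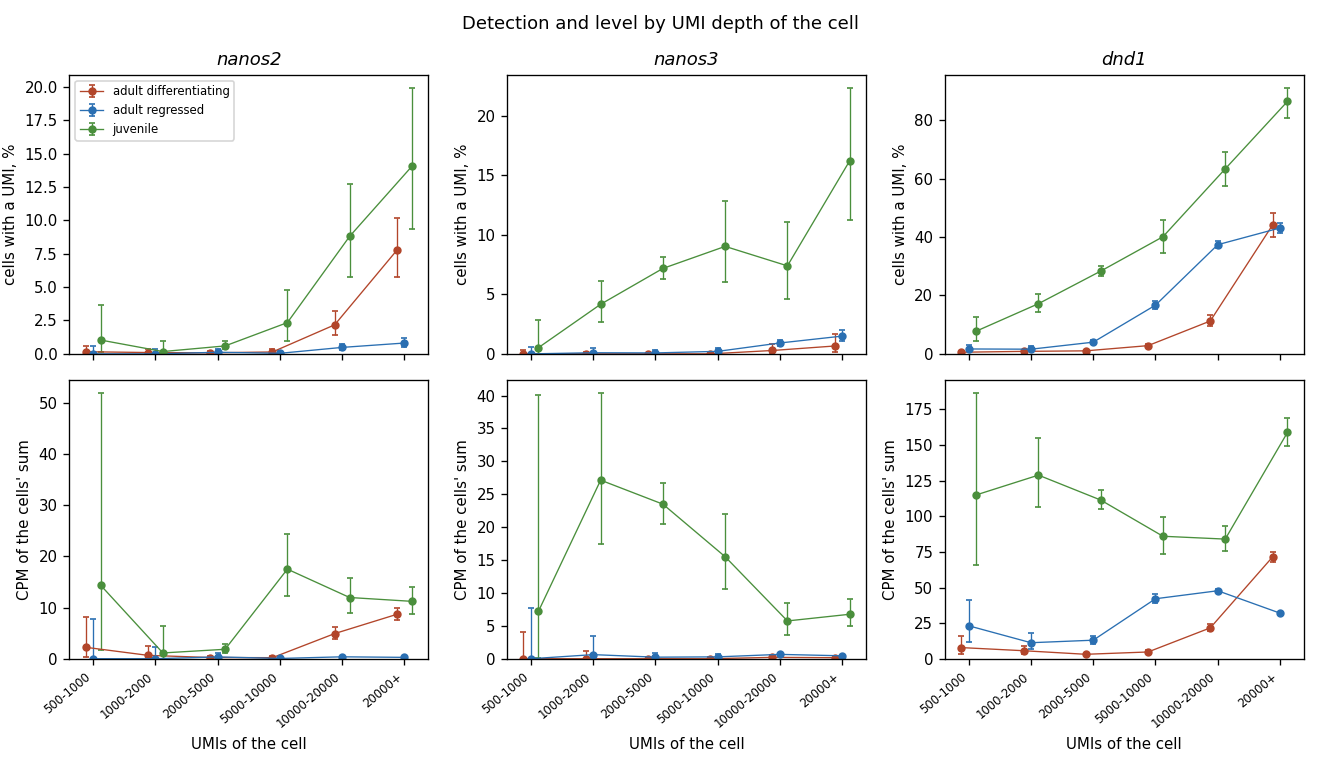
Percentage of cells with a UMI (top) and CPM of the summed cells (bottom) by the UMIs of the cell, for each gene and library, with exact 95% counting intervals. Adult nanos2 and dnd1 CPM climb in the deepest differentiating cells, and juvenile nanos3 CPM is lower in deep cells than in shallow ones.

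To see which cells carried the genes, each library was clustered on its own with the 3 genes left out, and clusters of at least 50 cells were read, 15 in the adult differentiating, 17 in the adult regressed and 8 in the juvenile testis. A name such as "spermatid-like" was given only from marker genes, and 6, 1 and 3 clusters received one in that order of libraries. The oocyte list was not used for naming, so no cluster could be named after it. The other clusters stayed unnamed and are given by number.

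In the adult differentiating testis all 3 genes were highest in cluster 14, which had 260 cells and a median of 25685.5 UMIs. It stayed unnamed. This cluster held 265 of the 301 nanos2 UMIs, at 33.5 CPM (29.6 to 37.8) and in 24.2% of its cells. The next highest of the other clusters reached 1.69 CPM (cluster 4, led by the replication genes mcm3, mcm4, mcm6 and mcm7), and 5 clusters had no nanos2 UMI. The cluster also held 1883 of the 2275 dnd1 UMIs, at 237.9 CPM (227.3 to 248.9) and in 94.2% of its cells, with spermatocyte-like cluster 5 next at 9.01 CPM. All 7 nanos3 UMIs lay in it, at 0.884 CPM (0.356 to 1.82). In the 4 spermatid-like clusters, where these RNAs would not be looked for, dnd1 was found in 0.355% to 1.43% of cells at median depths of 1231 to 6535 UMIs. The share in cluster 14 lies far above that background.

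Cluster 14 differed from the other adult differentiating cells in germline markers as well. These took part in the clustering, so they describe the cluster and test nothing. zbtb16, the PLZF factor of undifferentiated spermatogonia, stood at 19.1 CPM in the cluster and 0.571 CPM in the remaining cells. gfra1a, which encodes a receptor for the niche factor GDNF, stood at 5.94 and 0.502 CPM, and ret, the co-receptor, at 3.79 and 0.167 CPM. The factors sall4 and pou5f3 stood at 4.42 and 3.79 CPM in the cluster, against 0.153 and 0.0418 CPM in the rest. kita, a receptor of differentiating spermatogonia, and the DNA methyltransferase gene dnmt3bb.1 were higher too, at 3.79 and 41.7 CPM in the cluster against 0.0418 and 5.42 CPM in the rest. dmrt1, a gene of testis development, was at 0.253 CPM in the cluster and 0.878 CPM in the rest, a ratio of 0.288 (0.0341 to 1.08). The spermatocyte list was at its lowest here among the 15 clusters of at least 50 cells, at a summed 2360 CPM. Markers of other cells were also present in cluster 14, with the macrophage list at a summed 118.5 CPM, against 3.14 CPM in the lowest cluster, and the oocyte list at 385.9 CPM, against 27.6 CPM in the lowest cluster. Of the macrophage sum, cd74, an antigen-presentation gene, made up 26.4 CPM and cd74b 86.0 CPM. Of the 10 macrophage markers, 5 had an interval above 1 against the rest and 4 one that includes 1. The other, c1qa, was lower, at 0.632 against 5.82 CPM. The Leydig list, of steroid-producing cells, summed to 54.1 CPM, the Sertoli list to 23.1 CPM and the stromal and myoid list to 39.3 CPM, each the highest sum of all 15 clusters. Of 9 Sertoli markers measured, 5 had an interval above 1 against the rest, 1 one below and 3 one that includes 1. sox9a stood at 8.84 against 0.0975 CPM and cldn11a at 6.57 against 0.223 CPM, while fshr was lower, at 0.379 against 1.20 CPM. The Sertoli hormone gene amh had 0 UMIs in the whole library. The hormone gene insl3 stood at 34.2 CPM in the cluster and 0.0697 CPM in the rest. Here star stood at 8.46 and 0.125 CPM and cyp17a1 at 5.56 and 0.237 CPM. All 271 insl3 UMIs of the cluster lay in 3 cells, and none of these had nanos2. The part of these other cell types in the levels of the 3 genes was not tested.

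In the adult regressed testis dnd1 and nanos3 shared a cluster and nanos2 was spread. Cluster 8, with 1080 cells and a median of 13131 UMIs, was led by smim22 and by epcam, an epithelial adhesion gene. It stayed unnamed. It held 3097 of the 8303 dnd1 UMIs, at 185.7 CPM (179.2 to 192.4) and in 85.9% of cells. The Sertoli-like cluster 15 came next at 80.6 CPM (71.5 to 90.5), and the lowest cluster had 6.11 CPM. At a finer clustering 77.1% of the cells of cluster 15 kept that name. Cluster 15 also had the highest sums of the undifferentiated and differentiating spermatogonia lists in this library. These sums were 57.3 and 51.6 CPM, against 22.6 and 17.6 CPM in cluster 8. Which cell type held the dnd1 of cluster 15 was not tested. The same cluster 8 held 57 of the 111 nanos3 UMIs, at 3.42 CPM (2.59 to 4.43), against 1.25 CPM (0.683 to 2.09) in cluster 11, the next highest. nanos2 reached 0.900 CPM (0.504 to 1.48) in cluster 8 and 0.721 CPM (0.330 to 1.37) in cluster 13, and these intervals overlap. Which cells held the most nanos2 depended on the clustering: at a finer setting the highest cluster was 150 of the 1080 cells of cluster 8, at 2.09 CPM, and with doublets kept it was a cluster of 96 cells that shared 0 cells with cluster 8, at 2.43 CPM. Cluster 17, which held the most lymphocyte-marker RNA, had dnd1 in 2.44% of its 82 cells at a median depth of 1460 UMIs, and no nanos2 or nanos3 UMI.

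pou5f3 stood at 5.22 CPM in regressed cluster 8 and 0.284 CPM in the other regressed cells, sall4 at 3.18 and 0.402 CPM, and kita at 2.70 and 0.152 CPM. zbtb16 was nearer to the rest here, at 3.54 and 1.06 CPM. The macrophage list summed to 155.8 CPM and the oocyte list to 316.4 CPM in cluster 8, and their part in its dnd1 and nanos3 levels was not tested. Of that macrophage sum, cd74 made up 40.4 CPM and cd74b 110.2 CPM. Of the 10 macrophage markers, 4 had an interval above 1 against the other regressed cells and 6 one that includes 1. dmrt1 was lower in cluster 8, at 1.02 CPM against 1.82 CPM in the rest, a ratio of 0.559 (0.322 to 0.907), and zbtb16b, a second PLZF gene, had a ratio of 1.55 (0.966 to 2.37). Of the 8 markers of undifferentiated spermatogonia, 8 had an interval above 1 in differentiating cluster 14 and 7 in regressed cluster 8, with the interval of the last including 1. Of 9 oocyte markers, 9 lay above 1 in cluster 14, and 8 above and 1 below in cluster 8. Of 6 Leydig markers, 6 lay above 1 in cluster 14 and 1 in cluster 8. Of 17 spermatocyte markers, 17 lay below 1 in cluster 14 and 15 in cluster 8. Marker genes were not left out of the clustering, and no share of all features with such an interval stands beside these counts. Nothing particular to a list is read from them. nanos2 stood at 33.5 CPM in the differentiating cluster and 0.900 CPM in the regressed one.

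**Figure D3:**
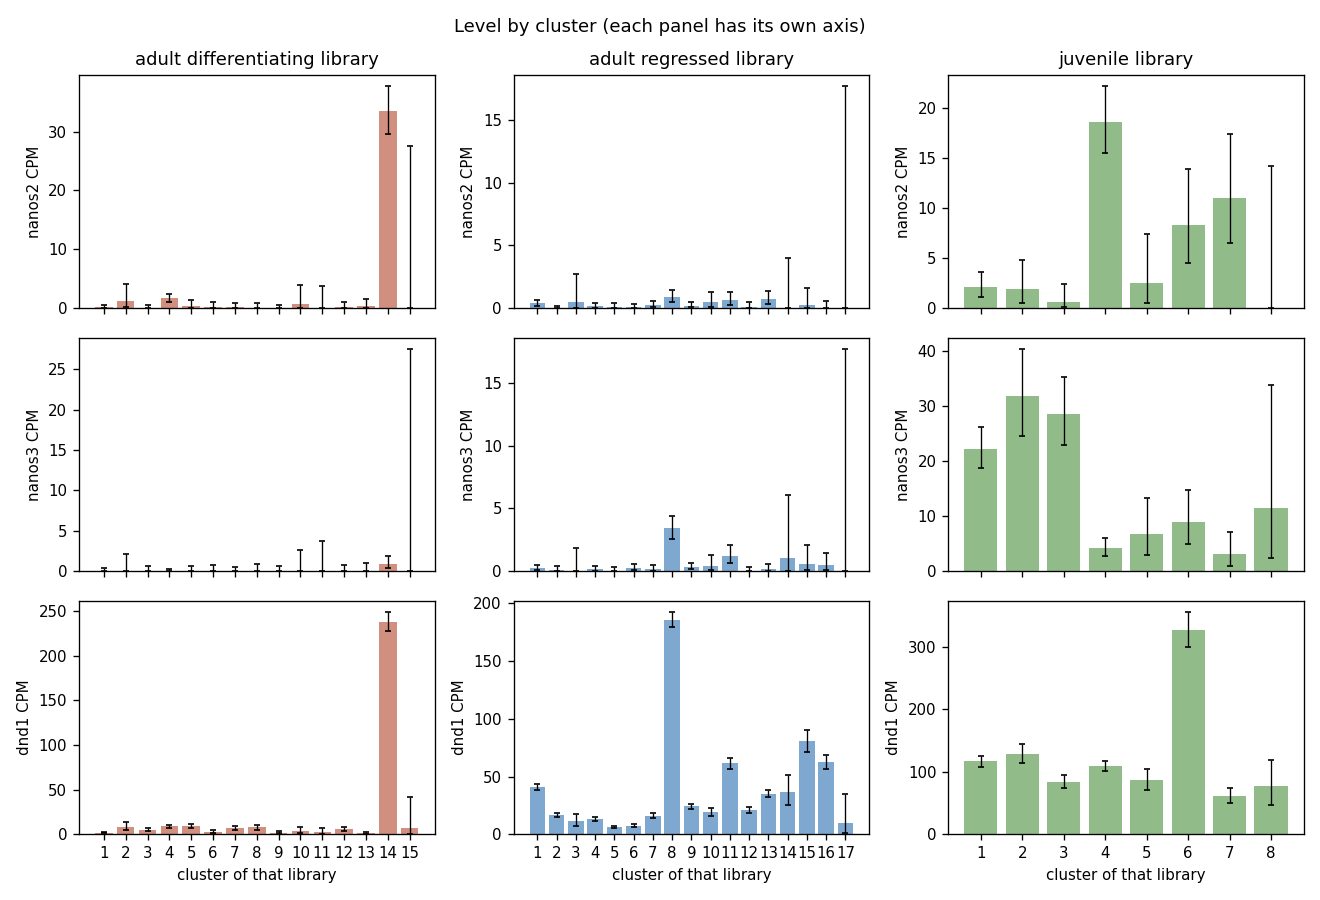
CPM of nanos2 (top), nanos3 (middle) and dnd1 (bottom) in each cluster of at least 50 cells, per library, with exact 95% counting intervals; each panel has its own axis. Cluster 14 of the adult differentiating testis stands out for nanos2 and dnd1, cluster 8 of the adult regressed testis for dnd1 and nanos3, and in the juvenile testis each gene has its highest value in another cluster.

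In the juvenile testis the 3 genes had their highest levels in different clusters. nanos3 was highest in clusters 1, 2 and 3, which together made up most of the cells, at 22.3 (18.7 to 26.3), 31.8 (24.7 to 40.4) and 28.6 CPM (22.9 to 35.3). It stood at 4.18 CPM (2.78 to 6.05) in cluster 4 and at 3.06 CPM (0.993 to 7.14) in the Sertoli-like cluster 7. dnd1 was spread over all clusters at 61.2 to 128.2 CPM, apart from the spermatocyte-like cluster 6 with 326.8 CPM, where 549 UMIs lay in 44 of its 101 cells and up to 60 in 1 cell. At a finer clustering 60.4% of these cells kept that name. Against the other juvenile cells, 15 of 17 spermatocyte markers had an interval above 1 in cluster 6. Of 8 markers of undifferentiated spermatogonia, 4 had one above 1 and 2 one below. The spermatocyte markers also gave the cluster its name, and no share of all features with such an interval stands beside these counts. zbtb16 stood at 23.2 against 1.75 CPM and pou5f3 at 78.6 against 208.8 CPM. Which of these cell types held the dnd1 of cluster 6 was not tested. nanos2 was highest in cluster 4, with 125 of the 179 UMIs, 18.7 CPM (15.6 to 22.3) and detection in 46 of 419 cells. Sertoli-like cluster 7 followed at 11.01 CPM (6.52 to 17.4), which overlaps the interval of cluster 4, and 14 of its 18 nanos2 UMIs lay in 1 cell.

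The 66 erythroid-like juvenile cells (cluster 8, median 3923.5 UMIs) are a cell type in which neither Nanos nor dnd1 RNA would be looked for. dnd1 was found in 24.2% of them (14.5% to 36.4%), at 77.1 CPM (47.1 to 119.1), and nanos3 in 4.55% (0.947% to 12.7%). In clusters 1, 2 and 3, whose median depths were 2868 to 3568.5 UMIs, dnd1 was found in 27.6% to 32.1% of cells and nanos3 in 6.36% to 11.5%. These shares lie inside the erythroid-like intervals, so that none of the shares stands above the background measured in this way. The erythroid-like cells were deeper, however, and shares rise with depth. In CPM, dnd1 stood at 116.4 in cluster 1 and 83.5 in cluster 3, inside the erythroid-like interval. It stood at 128.2 (113.4 to 144.4) in cluster 2, above the upper limit of that interval, though the intervals overlap. The nanos3 share of the erythroid-like cells rests on 3 of 66 cells, and nanos3 CPM differed between clusters, at 22.3 to 31.8 in clusters 1, 2 and 3 against 4.18 in cluster 4 and 3.06 in cluster 7. The part of RNA free in the droplets in these levels was not tested. nanos2 had no UMI in the erythroid-like cells, which allows up to 11.6 CPM, below the level in cluster 4.

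Set against the oocyte list, dnd1 had 5.56 to 10.3 UMIs per 1000 oocyte-list UMIs in 7 of the 8 juvenile clusters and 89.2 in cluster 6. Among those 7 the dnd1 value was not constant, at 5.695 (5.02 to 6.44) in cluster 3 and 9.88 (9.17 to 10.6) in cluster 4. nanos3 had 1.73 to 2.41 per 1000 in clusters 1, 2 and 3, 0.379 in cluster 4 and 2.44 in cluster 6. nanos2 had 1.69 per 1000 in cluster 4, 2.27 in cluster 6, 1.86 in cluster 7 and 0.0448 to 0.163 in clusters 1, 2, 3 and 5. The oocyte list itself was lower in clusters 6 and 7, at 3665 and 5912 CPM, against 10040 to 15600 CPM in the other juvenile clusters of at least 50 cells. A low oocyte-list count raises the value of any gene set against it. nanos2 in clusters 6 and 7 rests on 14 and 18 UMIs. The part of the oocyte-list RNA in these levels was not tested.

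Juvenile cells with at least 10 dnd1 UMIs, a limit set after the values were seen, numbered 30, of which 18 lay in cluster 6 and 8 in cluster 4. They held 23.5% of the library's dnd1 UMIs and had a median of 43763.5 UMIs. nanos2 was found in 8 of the 30. zbtb16 stood at 19.9 CPM in these cells and 1.98 CPM in the other juvenile cells, and piwil1, a Piwi protein of the germline piRNA pathway, at 851.2 and 205.2 CPM. dazl, a germ cell translation factor, stood at 237.2 and 77.7 CPM. pou5f3 was lower in them, at 39.7 against 212.1 CPM, as was the linker histone gene h1m of the oocyte list, at 1316 against 2795 CPM. Cluster 6, which held 18 of the 30 cells, differed from the other juvenile cells in the same direction for zbtb16 and pou5f3. The values are thus not separate from those of that cluster. They are single genes with no count over their lists, and nothing particular to a list is read from them. In the adult differentiating testis, all 79 cells with at least 10 dnd1 UMIs lay in cluster 14, where they held 48.0% of the library's dnd1 UMIs. In the adult regressed testis 26 of 42 such cells lay in cluster 8.

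Juvenile cluster 4 was led by apoeb and by the complement genes c1qa, c1qb and c1qc of macrophages, and its cells had a median of 15614 UMIs. At a finer clustering it split into 342 cells that held 119 nanos2 UMIs (21.7 CPM) and 74 cells with 9 raised macrophage markers and 5 nanos2 UMIs (4.30 CPM). The 342 cells scored highest for the Leydig list, though with 0 raised markers. Among their leading genes were insl3 and also LOC109143174 and LOC113746425, which led the erythroid-like cluster 8. In cluster 4 as a whole insl3 stood at 30.2 CPM, against 1.25 CPM in the other juvenile cells, and star at 7.62 against 0.417 CPM, while nr5a1, a steroidogenic factor gene, had 0 UMIs against 2.62 CPM. insl3 was found in 20 cells of the cluster, 5 of which also had nanos2. Of its 202 UMIs there, 133 lay in 3 cells. The insl3 cells held 10 of the 125 nanos2 UMIs of the cluster. The part of other cell types in the nanos2 level was not tested. Within cluster 4, the 10 cells with at least 3 nanos2 UMIs had c1qa at 27.4 CPM and cd74, an antigen-presentation gene, at 82.1 CPM, against 190.2 and 554.4 CPM in the 373 cells with none. Of the 12 germ granule and germ cell RNA-binding genes, 4 had a ratio with an interval above 1 (ddx4, piwil1, piwil2 and tdrd1), 1 had one below 1 (rbpms2, 0.576, 0.384 to 0.831) and 7 had intervals that include 1. Of 17 spermatocyte markers, 4 had an interval above 1 and 13 one that includes 1. Of 9 oocyte markers, 6 had one below 1 and 3 one that includes 1, and of 10 macrophage markers 5 and 5. Of 7 markers of undifferentiated spermatogonia, 1 had one above 1 and 6 one that includes 1. No share of all features with such an interval stands beside these counts, and nothing particular to a list is read from them. piwil1 stood at 337.4 against 189.7 CPM, piwil2 at 141.3 against 72.2 CPM and the germ cell helicase gene ddx4 at 496.9 against 296.1 CPM. sycp3, of the synaptonemal complex, stood at 583.6 against 384.9 CPM. dnd1 stood at 182.4 CPM against 103.2 CPM, a ratio of 1.77 (1.25 to 2.44). The nanos2-rich cells were also deeper, with a median of 20286.5 UMIs against 15124, and zbtb16 had no UMI in them. With 219341 UMIs in the 10 cells together and zbtb16 at 0.897 CPM in the cluster, nothing is read from that absence. These cells were picked after the values were seen, and the comparison describes 10 cells of 1 library.

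The same comparison in adult differentiating cluster 14 set 25 cells with at least 3 nanos2 UMIs (median 28822 UMIs) against 197 with none (median 25092 UMIs). dnd1 was at 213.7 CPM in the nanos2-rich cells and 241.1 CPM in the others, a ratio of 0.886 (0.758 to 1.03), and was detected in 25 of 25 and 183 of 197 cells. dnmt3bb.1 was higher in the nanos2-rich cells, at 79.0 against 32.0 CPM. It was 1 of 4 markers of differentiating spermatogonia, and the intervals of the other 3 include 1. The intervals of all 12 genes of the spermatogonial list include 1. Of 31 Pumilio, CCR4-NOT, BTG/TOB and decapping genes, 3 had an interval above 1 and 4 one below. Of 12 germ granule and germ cell RNA-binding genes, 3 had one above and 2 one below. No share of all features with such an interval stands beside these counts, and nothing particular to a list is read from them. dazl, which mouse NANOS2 is reported to repress, was at 277.1 CPM in them against 361.1 CPM, a ratio of 0.767 (0.670 to 0.876). It was 1 of 9 reported targets of NANOS2 or DND1 compared in this way, and the intervals of the other 8 include 1. sycp3, the target with the most counts, was at 850.2 against 882.3 CPM, a ratio of 0.964 (0.892 to 1.04). Among the stem cell markers, zbtb16 was at 22.3 against 19.7 CPM and gfra1a at 7.79 against 5.19 CPM, and their ratios of 1.13 (0.665 to 1.83) and 1.501 (0.557 to 3.49) have intervals that include 1.

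Cells with a UMI of both genes were counted and set against the number expected if the genes fell independently among cells of like depth, in 10 depth classes per library. In the adult differentiating testis, 67 of the 82 nanos2 cells also had dnd1, where 18.8 were expected, a ratio of 3.56 (2.76 to 4.52). That ratio was smaller with 20 depth classes, at 2.86, and with doublets kept, at 2.82. In the adult regressed testis 34 cells had both, where 21.7 were expected, a ratio of 1.56 with an interval that ends at 2.19 and does not include 1. With 20 depth classes the regressed ratio was 1.54, and with doublets kept 1.48. In the juvenile testis 55 had both, where 45.3 were expected, a ratio of 1.21 (0.914 to 1.58). The juvenile ratio was 1.14 with 20 depth classes and 1.26 with doublets kept. After thinning to 1000 UMIs per cell it was 2.41 (0.784 to 5.63), which rests on 5 cells with both genes, where 2.07 were expected from 19 nanos2 and 476 dnd1 cells.

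nanos3 and dnd1 met in all 7 adult differentiating nanos3 cells, where 1.49 were expected, a ratio of 4.68 (1.88 to 9.65). That ratio was 3.54 with 20 depth classes and 3.63 with doublets kept. In the adult regressed testis nanos3 and dnd1 met in 79 cells, where 39.6 were expected, a ratio of 1.99 (1.58 to 2.48). In the juvenile testis they met in 121, where 114 were expected (1.06, 0.880 to 1.27). nanos2 and nanos3 met in 2 adult differentiating, 4 adult regressed and 9 juvenile cells, against 0.265, 0.595 and 7.48 expected.

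The same count was made within single clusters, in 4 depth classes. In adult differentiating cluster 14, 62 cells had nanos2 and dnd1, where 59.5 were expected, and in adult regressed cluster 8, 47 cells had nanos3 and dnd1, where 46.8 were expected. dnd1 was in 94.2% and 85.9% of the cells of these clusters, which leaves a ratio little room to depart from 1, and nothing is read from them. In juvenile cluster 6, of highest dnd1, 6 cells had nanos2 and dnd1, where 4.48 were expected (1.34, 0.491 to 2.92). In juvenile cluster 4, of highest nanos2, 41 had both, where 33.7 were expected (1.22, 0.873 to 1.65).

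**Figure D4:**
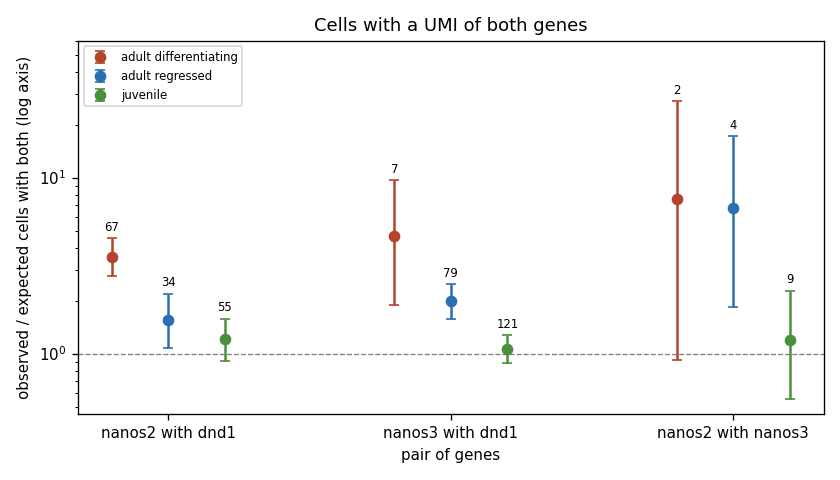
Observed over expected number of cells with a UMI of both genes (log axis), for each pair of genes and library, with 95% counting intervals and the observed number above each point. The dashed line marks equality; the adult differentiating ratio for nanos2 with dnd1 is 3.56, and the juvenile intervals of all pairs reach below 1.

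Across clusters, the levels of the 3 genes moved together in the adult differentiating testis, with Pearson's r of log2(CPM + 1) over 15 clusters of 0.88 for nanos2 with dnd1, 0.88 for nanos3 with dnd1 and 0.94 for nanos2 with nanos3. Without cluster 14, r of nanos2 with dnd1 was 0.35 over 14 clusters, and nanos3, with 0 UMIs in all 14, gave no r. Over the 17 adult regressed clusters r was 0.52, 0.80 and 0.50 in the same order of pairs. Over the 8 juvenile clusters it was 0.27, 0.17 and -0.71, so that nanos2 and nanos3 ran in opposite directions there. The clusters of a library share its RNA background and differ in depth, and these correlations are descriptions.

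Among 8618 features with at least 5 CPM in every library, those with a cluster profile most like nanos2 were ier2a (mean r of the 3 libraries 0.73), acbd7 (0.70), prdx6 (0.69), nog1 (0.69) and junbb (0.69). ier2a and junbb are immediate-early response genes. In the adult regressed testis, where nanos2 had 64 UMIs, r of these features was lower, at 0.421 to 0.537. Most like nanos3 were tcea2 (0.86), a transcription elongation factor, the unnamed features LOC104921090 (0.81), LOC104939084 (0.80) and LOC104919902 (0.76), and the Notch ligand gene jag2b (0.77). All 7 adult differentiating nanos3 UMIs lay in cluster 14, so any feature that peaks there has a high r in that library. Most like dnd1 were zgc:65997 (0.87), LOC104928179 (0.87), cmc2 (0.86), sh3bgr (0.85) and LOC104919845 (0.84). No feature was shared by these lists, and with 5 features taken from 8618 for each gene, nothing is read from that.

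The partners through which Nanos proteins act were compared between libraries from a list of Pumilio, CCR4-NOT, BTG/TOB and decapping genes, of which 31 were measured. In adult differentiating over adult regressed, 4 were at least 2-fold higher, 1 at least 2-fold lower and 26 inside 2-fold, with a median log2 ratio of 0.39 against 0.01 over all features. The shares of 12.9% higher and 3.23% lower stand beside 21.3% and 18.8% of all features. In adult differentiating over juvenile, 12 were higher, 7 lower and 12 inside 2-fold (38.7% and 22.6%, beside 38.8% and 25.8% of all features; median 0.59 against 0.41). In adult regressed over juvenile, 8 were higher, 7 lower and 16 inside 2-fold (25.8% and 22.6%, beside 33.5% and 25.0% of all features; median 0.05 against 0.32).

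The scaffold of the deadenylase, cnot1, stood at 483.0 CPM in the adult differentiating, 285.7 CPM in the adult regressed and 183.6 CPM in the juvenile testis. The catalytic subunit gene cnot8 stood at 542.1, 204.9 and 220.8 CPM in that order. pum2, which encodes a Pumilio protein, stood at 77.7, 97.1 and 182.6 CPM. The decapping cofactor gene dcp1b stood at 40.3, 7.83 and 1.02 CPM.

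Some genes of this list were far higher in the juvenile testis. btg4, which in mouse drives the clearance of maternal RNA in the egg, stood at 0.339 CPM in the adult differentiating, 0.0771 CPM in the adult regressed and 720.9 CPM in the juvenile testis. lsm14b, an RNA-storage protein of oocytes in mouse, stood at 1.31, 1.65 and 361.0 CPM. nanos1, the third Nanos gene found in the feature table, stood at 0.452, 0.308 and 3.28 CPM, so that it too was highest in the juvenile testis. tob2, an adaptor to the deadenylase, stood at 4.39, 8.44 and 35.7 CPM.

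RNAs reported in mouse, human cells or zebrafish as bound or regulated by NANOS2 or DND1 were represented by 9 measured genes. Of these, 2 were at least 2-fold higher and 1 at least 2-fold lower in adult differentiating over adult regressed, and 5 were higher and 1 lower in each adult library over the juvenile one. That is 22.2% higher and 11.1% lower between the adult testes, beside 21.3% and 18.8% of all features. Over the juvenile testis it is 55.6% higher in each adult, beside 38.8% of all features for the differentiating testis and 33.5% for the regressed one, and 11.1% lower, beside 25.8% and 25.0%. sycp3 stood at 2583 CPM in the adult differentiating, 1216 CPM in the adult regressed and 312.8 CPM in the juvenile testis. cdkn1a, a cell cycle inhibitor gene, stood at 4.08, 87.6 and 4.18 CPM, 21.5-fold lower in the differentiating than in the regressed testis. cdkn1b, which human DND1 protects from microRNA repression, stood at 17.4, 18.7 and 47.7 CPM. tdrd7b stood at 28.0, 33.0 and 1.96 CPM.

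Of 12 germ granule and germ cell RNA-binding genes, 3 were at least 2-fold higher and 0 lower in adult differentiating over adult regressed, 8 higher and 2 lower in adult differentiating over juvenile, and 3 higher and 2 lower in adult regressed over juvenile. The shares higher were 25.0%, 66.7% and 25.0% in these comparisons, beside 21.3%, 38.8% and 33.5% of all features, and the shares lower were 0%, 16.7% and 16.7%, beside 18.8%, 25.8% and 25.0%. ybx1, a translational repressor of stored messenger RNA, stood at 3375 CPM in the adult differentiating, 815.1 CPM in the adult regressed and 835.5 CPM in the juvenile testis. tdrd6a, a Tudor protein of the germ granule, stood at 896.1, 256.8 and 118.9 CPM. The lower pair against the juvenile testis was rbpms2, at 4.32, 5.92 and 379.6 CPM, and igf2bp3, at 3.99, 2.13 and 211.9 CPM. In adult differentiating over juvenile, the 8 higher genes thus stood opposite to nanos2, nanos3 and dnd1, while rbpms2 and igf2bp3 shared their juvenile peak.

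Of the spermatogonial list, 12 genes were found. None was at least 2-fold higher and 3 were at least 2-fold lower in adult differentiating over adult regressed. Against the juvenile testis, 2 were higher and 5 lower of 10 measured in the adult differentiating testis, and 3 higher and 7 lower of 12 in the adult regressed testis. The shares higher were 0%, 20.0% and 25.0% in these comparisons, beside 21.3%, 38.8% and 33.5% of all features, and the shares lower were 25.0%, 50.0% and 58.3%, beside 18.8%, 25.8% and 25.0%. With 9 to 31 genes in a list, nothing particular to any of them is read from these counts. pou5f3 stood at 0.414 CPM in the adult differentiating, 0.657 CPM in the adult regressed and 199.5 CPM in the juvenile testis, and sall4 at 0.577, 0.612 and 29.8 CPM. dmrt1 stood at 0.816, 1.76 and 8.18 CPM. zbtb16 stood at 2.41, 1.25 and 3.28 CPM, the order also seen for nanos2. kita, at 0.414, 0.345 and 1.19 CPM, and gfra1b, at 0.151, 0.0952 and 0.213 CPM, had that order too, but not beyond counting error. The kita ratio of adult differentiating over adult regressed was 1.20 (0.774 to 1.83). gfra1b rests on 12, 21 and 5 UMIs, and the intervals of all its ratios include 1. The second PLZF gene, zbtb16b, was instead lowest in the juvenile testis, at 1.39, 0.970 and 0.0853 CPM.

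**Figure D5:**
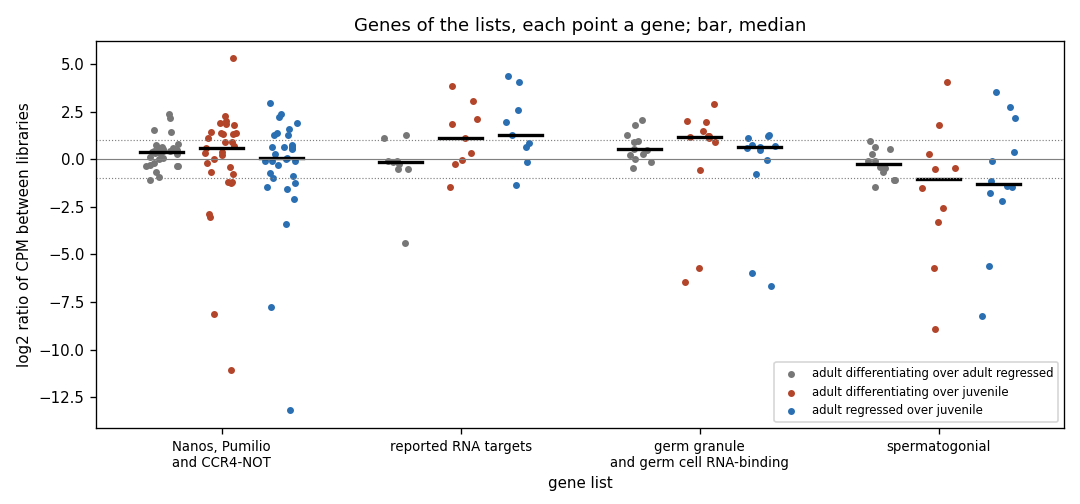
Log2 ratio of CPM between libraries for each gene of the 4 lists with at least 20 UMIs over the pair; points are genes, black bars are medians, dotted lines mark 2-fold. The far points below 0 against the juvenile testis are genes such as btg4, lsm14b, pou5f3, rbpms2 and igf2bp3.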

How the data were processed

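The deposited matrices hold raw UMI counts of features by barcodes. Per the file headers, Cell Ranger 5.0.0 wrote them. The submitters' processing notes name Cell Ranger 3.1.0 and STAR. The genome build and the cell-calling settings are not given in the sources used here, so no coordinates and no sequences are printed. A reference annotation table (L_crocea_2.0) served for names alone. It holds 15971 of the 15972 LOC features and gives a symbol to 6125. The members and gene lists were chosen with earlier results of these data known. Genes given with values are the 3 members, list genes that were among the 3 most abundant of their list or past 2-fold, and the 5 features most like each member.

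Kept cells had at least 500 UMIs, 300 genes and at most 20% mitochondrial UMIs over 13 genes. Every deposited barcode had at least 500 UMIs. Doublets were scored per library with 2 simulated doublets per barcode, by code after the Scrublet method, and removed at 0.8% per 1000 barcodes (1752 adult differentiating, 2543 adult regressed and 180 juvenile). Each library was clustered on its own after the members, mitochondrial and ribosomal genes were left out (2000 variable genes, 30 principal components, 20 neighbours, Leiden resolution 1; Python 3.11.15, scikit-learn 1.9.0, igraph 0.11.9, leidenalg 0.10.2). The oocyte list was not among the classes scored for naming. A cluster of at least 50 cells was named after the class with the highest mean log2(CPM + 10) of its markers relative to the mean of all clusters. That score had to be at least 1, and at least 3 markers had to be raised by 1 or more in log2 and found in at least 5% of the cells. No name was given where another class had more markers among the 10 leading genes, or where the median UMI count was under 0.333 of the library's and no own marker was among those 10. The rule that drops a name kept by under 50% of the cells at resolution 2 came after the clusters were known. The choice of cells with at least 3 nanos2 or 10 dnd1 UMIs, the correlation without cluster 14, the count of insl3 cells and the finer split of juvenile cluster 4 date from then as well.

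Intervals are exact Poisson for CPM of summed UMIs, exact conditional binomial for ratios and Clopper-Pearson for shares, at the 95% level. For a count of 0, the upper limit is that of 3 counts. The ratio interval was tested on simulated data. With 1 library per group no p-value was computed. Ratios past 2-fold were counted over features with at least 20 UMIs in the pair. List genes with an interval above or below 1 were counted with no such count over all features. The alternatives changed the cell filter, the treatment of doublets, the scaling, the thinning and the clustering.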

Additional observations from a re-analysis of the deposited data

How the results depend on the processing

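No paired analysis was possible because each group has 1 library, and for the same reason no replicate could be left out. No ratio between libraries changed direction. Leaving out cells whose barcode also occurs in another library moved no ratio beyond its counting interval. Of 63 ratios under alternatives, 45 moved by less than the counting interval and 18 by more. When CPM was averaged over single cells, the ratios of adult differentiating over adult regressed, adult differentiating over juvenile and adult regressed over juvenile were 5.34, 0.350 and 0.0655 for nanos2 and 0.0510, 0.00116 and 0.0228 for nanos3, and the first 2 were 0.271 and 0.0835 for dnd1. With median-of-ratios scaling, which shifts the median feature by -0.03, -0.32 and -0.29 on the log2 scale for these pairs, nanos2 was 0.397 in adult differentiating over juvenile, and dnd1 was 0.194 in that pair and 0.260 in adult regressed over juvenile. For dnd1, every barcode gave 0.828 (adult differentiating over adult regressed) and 0.275 (over juvenile), doublets kept gave 0.830 and 0.276, and leaving the 50 most abundant features out of the denominator gave 0.634, 0.219 and, for adult regressed over juvenile, 0.346. Thinning to a greater depth raises a share by construction, and it also changed the cells compared, because shallower cells were dropped. At 5000 UMIs, 4465 adult differentiating, 11036 adult regressed and 768 juvenile cells remained. At 2000 UMIs, nanos3 was found in 0.103% of adult regressed and 3.64% of juvenile cells, and dnd1 in 1.64%, 6.42% and 18.8% of the cells of the adult differentiating, adult regressed and juvenile testes. At 5000 UMIs the shares were 0.627%, 0.136% and 3.39% for nanos2, 0.0448%, 0.281% and 4.30% for nanos3 and 5.62%, 15.9% and 33.1% for dnd1. Another random seed gave 9.43% for juvenile dnd1. Juvenile co-detection of nanos2 and dnd1 was 2.41 times the expected number after thinning (5 cells, 0.784 to 5.63). The highest cluster CPM of dnd1 was 210.5 in the adult differentiating library with doublets kept, and 137.7 at resolution 0.5 and 174.7 with doublets kept in the adult regressed library. That of nanos2 in the adult regressed library was 2.09 at resolution 2 and 2.43 with doublets kept. The cause of the other moves was not tested. The removed doublets held 37.8%, 34.0% and 14.8% of the nanos2 UMIs of the adult differentiating, adult regressed and juvenile testes. The adult differentiating nanos3 values rest on 7 UMIs.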
